A study of Mus musculus with 25 samples.

Results

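The mir-106a-363 cluster is a group of 6 microRNA hairpins on the mouse X chromosome, mmu-mir-106a, mmu-mir-18b, mmu-mir-20b, mmu-mir-19b-2, mmu-mir-92a-2 and mmu-mir-363 (written below without the species prefix). Its members were taken by name, without use of their values, and all 6 were found among the 1193 hairpins of the count table. Small RNA had been sequenced from the blood of male mice of the inbred strain C57BL/6 at 2, 9, 15, 24 and 30 months of age, with 5 libraries at each age and 25 in all. The labels give no genotype or treatment, so age is the labelled difference between the groups. Sequencing depth and lanes also differed between them. Blood is a mixture of cells and plasma, and in such bulk samples fewer cells of a type and less RNA per cell cannot be told apart.

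MicroRNAs guide Argonaute proteins to messenger RNAs through their seed, the bases next to the 5′ end, and lower the output of the messages they pair with. The mir-106a-363 cluster is a paralogue of the mir-17 cluster (oncomiR-1, with mir-17, mir-18a, mir-19a, mir-20a, mir-19b-1 and mir-92a-1), which drives proliferation and survival of blood cell precursors and restrains inhibitors of the cell cycle and the pro-apoptotic protein Bim. Another paralogue, mir-106b-25, lies in an intron of Mcm7. In mice the X-linked cluster is known as a retroviral insertion site in T cell lymphoma (Xpcl1, Kis2), and its germline loss alone gave no overt defect, unlike loss of the mir-17 cluster.

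In the mouse assembly GRCm38.p6 the RefSeq hairpins span chrX:52741693-52742567, 875 bases on the minus strand, in the order mir-106a, mir-18b, mir-20b, mir-19b-2, mir-92a-2 and mir-363 from 5′ to 3′. mir-106a lies at 52742503 to 52742567 and mir-363, at the other end, at 52741693 to 52741767. The GENCODE vM21 long non-coding RNA gene Kis2 (52742563 to 52744960, same strand) overlaps the 5′ end of mir-106a by 5 bases, and the other 5 hairpins lie downstream of it. These are positions in that assembly, while the authors' build is not given in the sources used.

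The mature microRNAs from RefSeq (GRCm38.p6) are shown because the seeds they share, and the bases in which they differ, decide which reads can be told apart. Capitals mark the seed, bases 2 to 8. The first group has the seed of miR-17, with miR-17 and miR-20a of the mir-17 cluster given below the members miR-106a and miR-20b.
miR-106a-5p: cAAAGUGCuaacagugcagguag
miR-20b-5p: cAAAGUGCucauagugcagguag
miR-17-5p: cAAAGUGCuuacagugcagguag
miR-20a-5p: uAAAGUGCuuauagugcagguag
Positions are counted from 1 at the 5′ end, with the base of the mir-17 cluster counterpart first. miR-106a differs from miR-17 at 1 of 23 bases (U10A), and miR-20b differs from miR-20a at 2 (U1C and U10C).

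The second group has the seed of miR-18, in which miR-18b differs from miR-18a at A18U and A20U, both outside the seed.
miR-18b-5p: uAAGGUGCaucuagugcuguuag
miR-18a-5p: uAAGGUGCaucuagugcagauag
The third holds miR-19b, for which the X chromosome hairpin mir-19b-2 and the chromosome 14 hairpin mir-19b-1 give the same 23 bases.
miR-19b-3p: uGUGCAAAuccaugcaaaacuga
The last group has the seed shared by miR-25, miR-32, miR-92a and miR-363. The miR-92a of mir-92a-2 and that of mir-92a-1 are the same 21 bases, while miR-363 and miR-32 differ from them outside the seed.
miR-92a-3p: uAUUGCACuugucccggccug
miR-363-3p: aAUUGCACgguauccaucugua
miR-32-5p: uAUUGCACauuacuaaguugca

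The whole hairpins of mir-92a are printed to show how far the identity runs, with the stretch of 22 bases common to both in capitals. The first lies at chrX:52741838-52741928 on the minus strand and the second at chr14:115044427-115044506 on the plus strand.
mir-92a-2: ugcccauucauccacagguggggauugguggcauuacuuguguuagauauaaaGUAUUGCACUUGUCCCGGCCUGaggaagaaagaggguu
mir-92a-1: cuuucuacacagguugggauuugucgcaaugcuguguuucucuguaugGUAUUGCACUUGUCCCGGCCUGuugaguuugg
The bases differ directly before and after that stretch, so a read is particular to 1 hairpin only where it runs past the stretch or comes from the other arm. For the pair of miR-19b hairpins the common stretch is 25 bases.

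The deposited values are raw counts of reads per hairpin, with both arms of a hairpin in 1 value. Totals ran from 4.884 to 24.25 M (mega) counts per library, with a median of 15.39 M, and the 30-month libraries were the shallowest (mean 9.888 M, against 18.84 M at 2 months). Levels are given as CPM, counts divided by library sizes that were scaled by the trimmed mean of M-values, and are per hairpin, not per base. A floor of 3 counts on the scaled library sizes lay between 0.118 and 0.528 CPM. Floors and intervals on counts cover counting error alone. The blood cell microRNA mir-142a was present in every group, at 7601 to 9380 CPM at 30 months and 6753 to 8234 CPM at 2 months. The summed red cell markers mir-451a, mir-486a and mir-144 held 281251 to 437059 CPM at 30 months and 399266 to 485638 CPM at 2 months. In that sum mir-144 was a small part, with means of 450 CPM at 30 months and 1193 CPM at 2 months. mir-223 of neutrophils and monocytes had 109 to 208 CPM at 30 months and 55.1 to 62.5 CPM at 2 months. The summed lymphocyte markers mir-150, mir-342 and mir-155 had 159 to 412 CPM, against 289 to 508 CPM, and the platelet and endothelial markers mir-126a and mir-199a-1 had 3.04 to 7.67 CPM, against 11.4 to 15.8 CPM. Most of the lymphocyte sum was mir-150, with means of 288 CPM at 30 months and 356 CPM at 2 months. The means of mir-342 were 22.0 and 22.4 CPM at these ages, and mir-155 went the other way, with 4.08 and 2.03 CPM. Markers of liver, muscle and epithelium (mir-122, mir-133a-1, mir-1a-1 and mir-200c) summed to 9.56 to 27.2 CPM at 30 months and 19.4 to 122 CPM at 2 months. Most of this sum was mir-133a-1 of muscle, with means of 13.2 CPM at 30 months and 43.6 CPM at 2 months. The means of mir-200c of epithelium were 5.37 and 7.42 CPM at these ages. Liver mir-122 went the other way, with 0.402 and 0.216 CPM, and mir-1a-1 of muscle was at 0 and 0.0121 CPM. The part of these cell types in the values of the cluster was not tested.

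The cluster took 0.726% to 1.14% of all counts of a library (median 0.890%), and nearly all of that was mir-92a-2. This hairpin held 95.7% to 97.9% of the counts of the cluster. Its mean of 8535 CPM made it 12th of the 1193 hairpins, with 41764 to 190287 counts in single libraries. Next came mir-19b-2 at 267 CPM, then mir-363 at 4.25 CPM. The remaining 3 hairpins were rare, mir-20b at 0.728 CPM, mir-106a at 0.448 CPM and mir-18b at 0.202 CPM. mir-20b was above 3 counts in 24 of 25 libraries, mir-106a in 20 and mir-18b in 8.

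**Figure D1:**
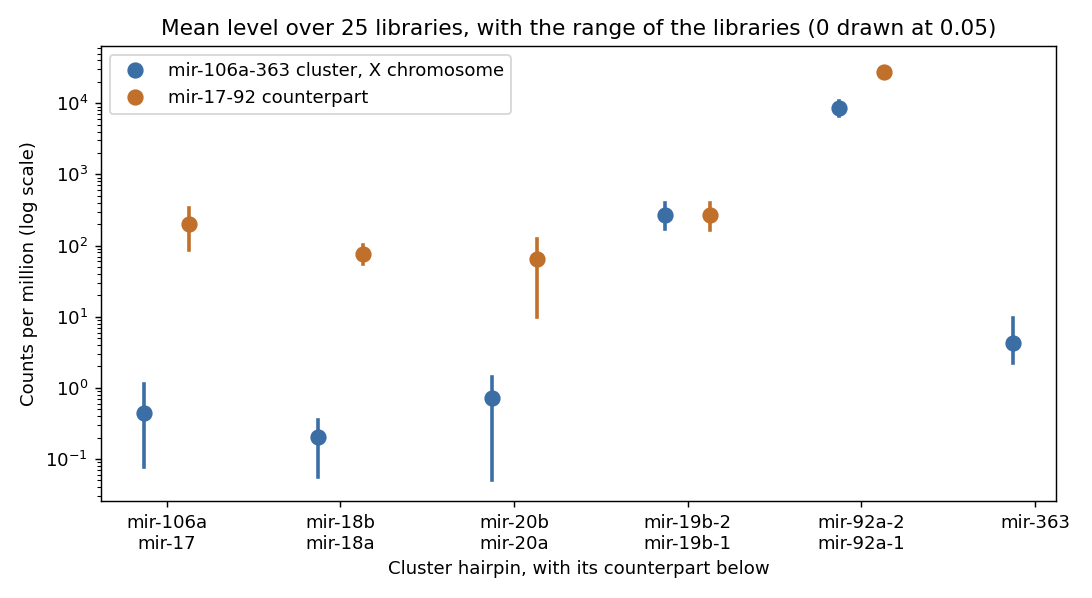
Mean level of each cluster hairpin (blue) and of its counterpart in the mir-17 cluster (orange), in CPM on a log axis, over 25 libraries, with lines from the lowest to the highest library (the 0 of mir-20b is drawn at 0.05). mir-106a, mir-18b and mir-20b lie below 1 CPM on average, far under their counterparts, and mir-19b-2 lies on its counterpart. mir-363 has no counterpart in the mir-17 cluster.

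Relative to the mir-17 cluster hairpins of the same seed, mir-106a, mir-18b, mir-20b and mir-363 were minor. mir-106a had a median of 0.215% of the counts of mir-17 in the same library (range 0.0429% to 0.520%), mir-18b 0.278% of those of mir-18a (0.0845% to 0.542%) and mir-20b 1.05% of those of mir-20a (0% to 4.37%). mir-363, with the seed of miR-92a, had a median of 0.0153% of the counts of mir-92a-1 (0.0082% to 0.0374%). mir-17, mir-18a and mir-20a averaged 204, 75.3 and 65.8 CPM. In the whole set of hairpins with the miR-17 seed, in which mir-93 (2820 CPM) and mir-106b (1513 CPM) of mir-106b-25 were the most abundant, mir-106a and mir-20b together made up 0.0253% ± 0.0074 of the counts (SD, n = 25). miR-106a and miR-17 are 1 base apart, and miR-18b and miR-20b are each 2 bases from miR-18a and miR-20a. The treatment of mismatched reads is, in the sources used here, not given. Counts of mir-106a, mir-18b and mir-20b at this level are therefore uncertain as to their hairpin.

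mir-19b-2 and mir-92a-2 stood in near-constant proportion to the hairpins with the same mature sequence on chromosome 14. The counts of mir-19b-2 were 96.8% to 106% of those of mir-19b-1 in every library, with a median of 101%. Those of mir-92a-2 were 29.4% to 35.2% of those of mir-92a-1, with a median of 31.5%. The rule for reads that match both hairpins is, in the sources used here, not given, so the levels of mir-19b-2 and mir-92a-2 are uncertain as to locus, and the share of each that came from the X chromosome cannot be read from these counts.

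With age, no hairpin of the cluster passed the test. At 30 against 2 months, 0 of the 5 tested members passed edgeR's quasi-likelihood test at an adjusted p under 0.05, while 48 of all hairpins tested, or 14.2%, did. The median log2 change was -0.03 over the 5 members and -0.04 over all hairpins tested. mir-18b did not pass the filter on low counts and was not tested. The other comparisons also called 0 of 5, against 2.07% of all hairpins at 9 months, 1.48% at 15 months, 12.1% at 24 months, 7.99% for a difference between any ages and 19.8% for a linear trend. Over these 30 tests of members none had an unadjusted p under 0.05 (lowest 0.0814), and the lowest adjusted p was 0.286 (edgeR). DESeq2 and limma-voom likewise called 0 and gave 0 with an unadjusted p under 0.05. Library totals gave 3 such tests, of which 1 was called (the slope of mir-92a-2, given with that hairpin). Lane in the fit gave 1 and so did the trend without the 2-month group, and neither was called. In all 6 hairpins the libraries of every older age overlapped those of 2 months. Of all hairpins tested, which leave out mir-18b, 10.7% had no overlap between 30 and 2 months. That share was not computed for the other ages. With so few members, 0 called and 0 without overlap do not set the cluster apart from these shares.

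**Figure D2:**
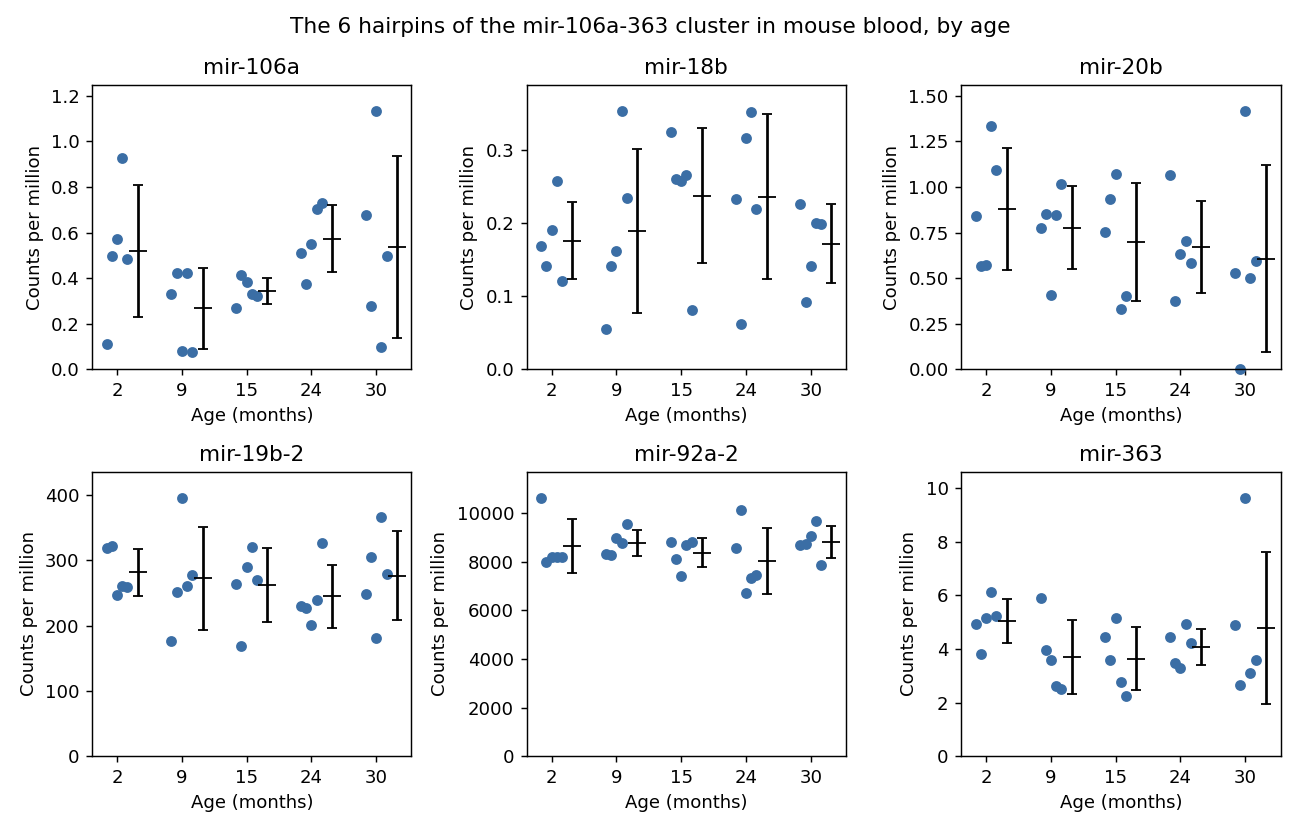
Level of the 6 hairpins in CPM, on linear axes from 0 that differ between panels, against age in months. Each point is 1 library and the bars are the mean and SD of the 5 libraries of an age. Every older age overlaps 2 months in every panel, and 1 library of 30 months stands at 9.64 CPM in mir-363.

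mir-363, whose microRNA shares the miR-92a seed but has a sequence of its own, had 28 to 120 counts per library. Its levels in the 5 libraries of each age were 4.92, 3.83, 5.15, 6.12 and 5.21 CPM at 2 months, 5.91, 3.96, 3.57, 2.61 and 2.50 CPM at 9 months, and 4.43, 3.59, 5.14, 2.78 and 2.26 CPM at 15 months. They were 4.46, 3.48, 3.27, 4.92 and 4.22 CPM at 24 months and 4.89, 2.67, 9.64, 3.10 and 3.58 CPM at 30 months. At 9, 15 and 30 months 4 of 5 libraries, and at 24 months all 5, lay below the 2-month mean of 5.05 CPM, but the groups overlapped at each age. The order of the means was 15, 9, 24, 30 and 2 months, at 3.64 ± 1.17, 3.71 ± 1.38, 4.07 ± 0.686, 4.78 ± 2.84 and 5.05 ± 0.819 CPM (SD, n = 5 each), and neighbours in that order differed by less than the larger of their SDs.

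The log2 changes of mir-363 against 2 months were -0.43 at 9 months (SE 0.29, edgeR adjusted p = 0.742), -0.46 at 15 months (SE 0.28, adjusted p = 0.873) and -0.33 at 24 months (SE 0.29, adjusted p = 0.525). At 30 months the change was -0.11 (95% interval -0.71 to 0.49, adjusted p = 0.858), which is 0.613-fold to 1.40-fold, and with library totals its direction turned, to 0.17. The 30-month value rests on replicate 3, the library at 9.64 CPM, which had 5.747 M counts. Without it the log2 change was -0.50 (edgeR adjusted p = 0.194), and without 30-month replicate 2 it was 0.042. Within sequencing lanes, read from the column names, the 30-month minus 2-month difference in log2 CPM was -0.30 in lane 5, -0.30 in lane 6, -1.19 in lane 7 and 0.88 in lane 8, the lane of replicate 3. These rest on 1 library per age, or on 2 of 30 months in lane 6. The column names give a lane number but no run or flow cell, so equal numbers need not mean a shared lane.

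mir-20b, a member of the miR-17 seed group, had the largest change of the 5 tested members at 30 months, on few counts. It had 7, 0, 10, 5 and 6 counts in the 30-month libraries and 15, 8, 9, 26 and 18 counts in the 2-month libraries. The library at 0 was 30-month replicate 2, where a count of 0 allows up to 0.276 CPM, and the highest of its age was again replicate 3. The mean of the 30-month libraries was 0.608 ± 0.511 CPM, against 0.881 ± 0.334 CPM for those of 2 months (SD over 5 libraries), and the groups overlapped. The means at 9, 15 and 24 months were 0.778 ± 0.226, 0.699 ± 0.324 and 0.672 ± 0.253 CPM, so the order of the means followed age while neighbours differed by less than their SD. The log2 change at 30 months was -0.67 (95% interval -1.63 to 0.29, edgeR adjusted p = 0.372), and the slope was -0.21 per 10 months (SE 0.13, adjusted p = 0.286). Leaving out replicate 3 gave -1.12 at 30 months (edgeR adjusted p = 0.123) and leaving out replicate 2 gave -0.33 (edgeR adjusted p = 0.679).

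mir-106a, the first hairpin of the cluster, had 9, 3, 8, 1 and 5 counts at 30 months and 2, 7, 9, 18 and 8 counts at 2 months. Its means were 0.518 ± 0.289 CPM at 2 months, 0.268 ± 0.176 at 9, 0.345 ± 0.0569 at 15, 0.574 ± 0.146 at 24 and 0.537 ± 0.399 at 30 months (SD over 5 libraries). All 5 libraries of 9 months and all 5 of 15 months were below the 2-month mean, and both ages overlapped the 2-month libraries, of which replicate 1 was at 0.112 CPM. The log2 change was -0.85 at 9 months (SE 0.47, edgeR adjusted p = 0.622) and -0.57 at 15 months (SE 0.44, adjusted p = 0.896). At 30 months it was -0.03, with an interval of -0.97 to 0.92, and its direction at that age was positive with upper quartile scaling (0.047), library totals (0.21) and limma-voom (0.017).

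mir-18b, the member with the miR-18 seed, had between 1 and 8 counts in every library. Summed over the libraries of an age it had 15 counts at 2 months, 14 at 9, 22 at 15, 19 at 24 and 9 at 30 months. In CPM of the unscaled totals this was 0.159 (exact 95% Poisson interval 0.0891 to 0.263), 0.173 (0.0948 to 0.291), 0.242 (0.152 to 0.366), 0.265 (0.160 to 0.414) and 0.182 (0.0832 to 0.346), and the 5 intervals overlap. Fitted with no filter on low counts, its log2 change was 0.54 at 15 months (edgeR adjusted p = 0.858) and -0.04 at 30 months (edgeR adjusted p = 1.0), and no comparison of it had an unadjusted p under 0.05.

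mir-19b-2, whose microRNA carries the seed of the miR-19 family, had 249, 305, 182, 367 and 279 CPM at 30 months and 319, 322, 247, 260 and 259 CPM at 2 months. The 30-month libraries lay on both sides of the 2-month range, and the lowest of them was again replicate 3. The log2 change was -0.03 (95% interval -0.44 to 0.39, edgeR adjusted p = 0.955), and above 0 with library totals (0.20) and upper quartile factors (0.031). At 9, 15 and 24 months the means were 272 ± 79.5, 262 ± 57.1 and 245 ± 48.0 CPM, against 282 ± 36.1 CPM at 2 months (SD, n = 5 each). The changes were -0.05, -0.10 and -0.20 on the log2 scale, all above 0 with library totals, and none passed.

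mir-92a-2, whose microRNA miR-92a is known from red cell precursors and from restraint of vessel growth by endothelium, had 8699, 8747, 9082, 9700 and 7865 CPM at 30 months, and 10648, 8015, 8186, 8199 and 8188 CPM at 2 months. At 2 months, 4 libraries lay within 8015 to 8199 CPM and replicate 1 stood above them. The log2 change at 30 months was 0.03 (95% interval -0.20 to 0.25, edgeR adjusted p = 0.904), an interval that runs from 0.873-fold to 1.19-fold. The means at 9, 15 and 24 months were 8780 ± 533, 8384 ± 604 and 8046 ± 1351 CPM (SD, n = 5 each), and the widest of the 5 groups was that of 24 months, at 6706 to 10137 CPM. Scaled by library totals, which raised the median of all hairpins by 0.11 log2 units per 10 months, its slope was 0.095 (edgeR adjusted p = 0.0370), less than the shift of all hairpins. With the TMM scaling the slope was -0.01 (edgeR adjusted p = 0.862).

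**Figure D3:**
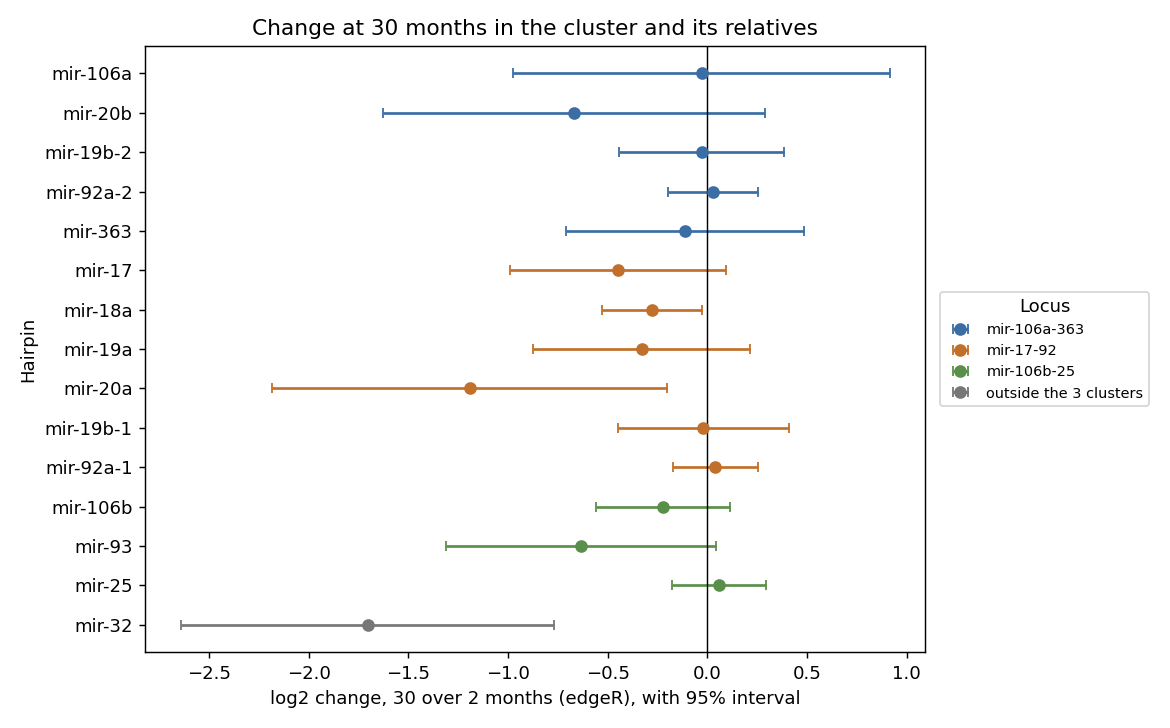
Log2 change at 30 over 2 months (edgeR, all 25 libraries in 1 fit) of the 5 tested cluster hairpins, the hairpins of the mir-17 and mir-106b-25 clusters and mir-32, with 95% intervals that are not adjusted for multiple tests. All 5 intervals of the mir-106a-363 cluster include 0, and they are widest for mir-106a and mir-20b and narrowest for mir-92a-2.

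The same comparison in the paralogous clusters is set beside these values. At 30 against 2 months, 0 of 6 hairpins of the mir-17 cluster and 0 of 3 mir-106b-25 hairpins passed, with median log2 changes of -0.30 and -0.22. On the linear trend, where 9.17% of all hairpins tested fell (31, but 9 with library totals), mir-18a (-0.11 per 10 months, SE 0.04, adjusted p = 0.0305) and mir-20a (-0.41 per 10 months, SE 0.15, adjusted p = 0.0449) fell by the edgeR test, and no mir-106b-25 hairpin passed. Leaving out each library in turn ended the call of mir-18a in 2 of 25 fits, those without 2-month replicate 4 and without 30-month replicate 2 (edgeR adjusted p up to 0.0700, slopes of -0.13 to -0.099). It ended that of mir-20a in 13 of 25 (edgeR adjusted p up to 0.0928, slopes of -0.47 to -0.34). With library totals neither was called, at slopes of -0.0027 for mir-18a (edgeR adjusted p = 0.953) and -0.30 for mir-20a (edgeR adjusted p = 0.188). Both calls also ended with upper quartile factors, with no filter and without the 2-month group, and that of mir-20a with lane in the fit, while both held with DESeq2 and limma-voom. mir-32, which has the seed of miR-363 and miR-92a but lies outside the 3 clusters, averaged 3.25 ± 2.09 CPM in the 30-month libraries, against 10.6 ± 2.62 CPM in the 2-month libraries (SD over 5 libraries). It fell by 1.70 on the log2 scale (SE 0.45, edgeR adjusted p = 0.0163, but 0.0760 with no filter on low counts), and whether that change differs from the -0.11 of mir-363 was not tested. mir-367, which has the same seed, was listed at 0 in every library.

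Ratios of counts within a library need no scaling factor. They ask whether a member moved differently from its counterpart or, for mir-363, from mir-92a-1, which shares its seed. With a pseudocount, such ratios still depend on depth where counts are few. Each was compared between the 5 libraries of 30 months and the 5 of 2 months by a two-sided exact permutation test on the log2 ratio, which at this size cannot give less than 0.00794, and the 6 p-values were adjusted together. mir-20b to mir-20a differed by 0.39 (exact p = 0.563, adjusted p = 0.810), with ratios of 0% to 4.37% at 30 months and 0.482% to 1.32% at 2 months. By level, both hairpins of this ratio were lower at 30 months, mir-20a by -1.19 (edgeR adjusted p = 0.102) and mir-20b by -0.67, and neither passed. mir-18b to mir-18a also differed by 0.39 (exact p = 0.0556, adjusted p = 0.333) with the pseudocount of 0.5. With a pseudocount of 5, above the median mir-18b count of 3, this ratio differed by 0.78 (exact permutation test, adjusted p = 0.0476). At that pseudocount the ratio depends on depth, which was lower at 30 months, so the value cannot be read as a change of mir-18b. The log2 ratio of mir-106a to mir-17 differed by 0.51 (exact p = 0.373) and that of mir-363 to mir-92a-1 by -0.26 (exact p = 0.508). Without single libraries these differences ran from 0.14 to 0.80 and from -0.58 to -0.089. The highest 30-month ratio of mir-363 to mir-92a-1, 0.0374%, was that of replicate 3. The ratios compare 30 with 2 months, and a trend of the ratios over the 5 ages was not tested.

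For the hairpins with identical microRNAs the ratio differences were -0.01 for mir-19b-2 to mir-19b-1 (exact p = 0.706) and -0.01 for mir-92a-2 to mir-92a-1 (exact p = 0.810). Reads that match both hairpins of such a pair may be split by a counting rule that is not given. Such a rule could fix these ratios in advance, so the tests of these pairs cannot show whether the 2 hairpins moved apart. The ratio of mir-19b-2 to mir-19b-1 had an SD of at most 2.91 percentage points within any age. mir-363, on 28 to 120 counts per library, varied between 0.0095% and 0.0374% of mir-92a-1 at 30 months, and between 0.0155% and 0.0234% at 2 months.

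**Figure D4:**
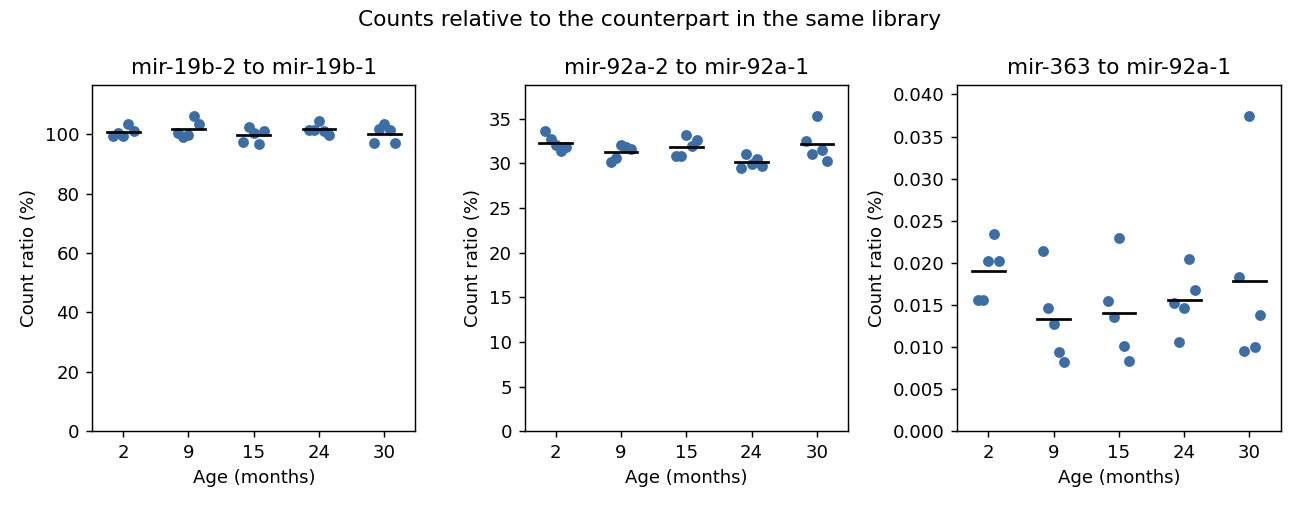
Counts of mir-19b-2 as a percentage of those of mir-19b-1, and of mir-92a-2 and mir-363 as a percentage of those of mir-92a-1, against age in months. Both counts are from the same library, and the linear axes start at 0 and differ between panels. Points are libraries and lines are means of 5 libraries. The first ratio stays within 96.8% to 106% and the second within 29.4% to 35.2%, while mir-363 spreads between 0.0082% and 0.0374%.

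Correlations between members across the 25 libraries had both signs, from -0.58 to 0.52. As a description over libraries that share ages, lanes and depth, log2 CPM of mir-363 had a Pearson r of 0.52 with mir-106a (Spearman rho 0.54) and 0.50 with mir-20b (rho 0.57), but -0.39 with mir-19b-2 (rho -0.37) and -0.14 with mir-92a-2 (rho -0.28). mir-106a and mir-92a-2 had an r of -0.58 (rho -0.61). The levels of mir-106a and mir-20b behind these values are counts of at most 26.

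Patterns like those of the members were sought among 141 hairpins outside the cluster and its relatives with a mean of at least 10 CPM. The 3 named for each member have the highest of 141 correlations, so their values are in part a product of that choice. Those most like mir-363 over the 25 libraries were mir-31 (Pearson r 0.77, rho 0.80), mir-130b (0.75, rho 0.65) and mir-1839 (0.66, rho 0.72). Without the 2 libraries farthest from the median of mir-363, r was 0.73 for mir-31, 0.58 for mir-130b and 0.63 for mir-1839. For mir-92a-2 the nearest were mir-30d (r 0.78, rho 0.74), mir-1981 (0.73, rho 0.74) and mir-361 (0.68, rho 0.61), and without the 2 libraries farthest from its median r was 0.62, 0.61 and 0.60 for these. For mir-19b-2 they were mir-486a and mir-486b (both 0.67, rho 0.58) and mir-7a-1 (0.61, rho 0.55), and r was 0.58, 0.58 and 0.51 without the 2 farthest libraries. mir-20b was nearest to mir-141 (r 0.76, rho 0.58), mir-15a (0.73, rho 0.67) and mir-301a (0.72, rho 0.51). Without the 2 libraries farthest from its median, of which the one at 0 counts is the extreme, these were 0.60, 0.66 and 0.53. mir-106a was nearest to mir-181b-2 (r 0.60, rho 0.65), mir-31 (0.59, rho 0.63) and mir-27b (0.58, rho 0.62), and r was 0.60, 0.56 and 0.54 without the 2 farthest libraries.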

How the data were processed

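The authors deposited 1 table of raw counts of reads per microRNA hairpin, with a column for each of 25 libraries. Libraries were prepared, per the labels' protocols, with the TruSeq kit for small RNA. That kit adds no molecular identifiers. The submitters' processing notes name SAMtools 1.3.1-9, Trimmomatic 0.36 and bcl2fastq 1.8.4 and give no roles. Not given in the sources used here are the aligner, counter, build, microRNA release, use of strand and treatment of reads that match several hairpins.

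From the counts, all 25 libraries were fitted with edgeR 4.0.16 in R 4.3.3, with factors from the trimmed mean of M-values (TMM), the default filter by age and the robust quasi-likelihood F test. At least 99.992% of the counts of a library passed the filter. Benjamini-Hochberg adjustment ran over all hairpins tested in a comparison, with a threshold of 0.05, and log2 changes have 2 months as the base. Intervals are the log2 change ± t × SE. Ratios used a pseudocount of 0.5. The fit was tested on simulated data. Alternatives were other scalings and filters, limma-voom 3.58.1, DESeq2 1.42.0, lane as a term, the libraries of the 2 ages alone, another pseudocount and leaving out each library with the tested hairpins and TMM factors of all 25 kept.

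Groups come from the age label. Replicate numbers follow accession order and pair nothing. Each title carries a number of its own, but nothing says what it stands for, so p-values measure the spread between these libraries, which may in part be technical. The cluster, the related hairpins, the markers and the rule for the most alike hairpins (the 3 with the highest Pearson r) were chosen with earlier results of these data known.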

Additional observations from a re-analysis of the deposited data

Results flagged for a closer look

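Of 42 groups of 5 values examined, 4 had a library that stood apart by Dixon's criterion for a gap relative to the range, and chance alone flags about 1 in 20 groups. mir-92a-2 at 2 months was highest in replicate 1, at 10648 CPM, with the other libraries at 8015 to 8199 CPM. mir-18b at 15 months was lowest in replicate 5, at 0.0807 CPM, which is 1 count, with the others at 0.257 to 0.324 CPM. The log2 ratio of mir-106a to mir-17 at 2 months was lowest in replicate 1, at -10.43 on 2 counts of mir-106a, with the others from -8.79 to -8.16. The log2 ratio of mir-20b to mir-20a at 2 months was lowest in replicate 3, at -7.62, with the others from -6.49 to -6.20.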

How the results depend on the processing

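Most values of rare members are limited by depth, since mir-106a, mir-18b and mir-20b had at most 26 counts in a library, and no log2 change or slope of the 5 tested hairpins passed the threshold under the alternatives run, except the slope of mir-92a-2 with library totals. No paired analysis was possible because the replicate numbers follow accession order and pair no samples. Causes of the differences below were not tested.

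With library totals, which raised the median of all hairpins by 0.12, 0.14, 0.37 and 0.24 at 9, 15, 24 and 30 months, the log2 changes turned to 0.041, 0.015, 0.17 and 0.20 for mir-19b-2, to 0.098 at 15 and 0.25 at 24 months for mir-92a-2, to 0.036 at 24 and 0.17 at 30 months for mir-363 and to 0.21 at 30 months for mir-106a. Slopes per 10 months then turned to 0.075 for mir-19b-2, 0.095 for mir-92a-2 and 0.090 for mir-363. With upper quartile factors the log2 change turned to -0.00025 for mir-92a-2 at 9 months and, at 30 months, to 0.047 for mir-106a and 0.031 for mir-19b-2, and the slopes to 0.0024 for mir-19b-2, 0.023 for mir-92a-2 and 0.0038 for mir-363. mir-92a-2 turned to 0.048 at 15 months with no filter and to a slope of 0.0037 with a filter of 10 CPM. At 30 months mir-106a turned to 0.017 with limma-voom and mir-19b-2 to 0.0073 with the 10 libraries of the 2 ages. Without the 2-month group the slopes were 0.012 for mir-19b-2, 0.017 for mir-92a-2 and 0.18 for mir-363. With a pseudocount of 5 the ratio of mir-18b to mir-18a differed by 0.78 (exact permutation test, adjusted p = 0.0476). That pseudocount is above the median mir-18b count of 3, so the ratio then depends on depth, which was lower at 30 months.

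The number of hairpins called at 9 months was 4 with upper quartile factors and with lane in the fit, against 7. At 15 months it was 3 with library totals, a filter of 10 CPM, limma-voom or lane, and 2 with the libraries of the 2 ages, against 5. At 24 months it was 24 with upper quartile factors, no filter or a filter of 10 CPM and 72 with library totals, against 41. At 30 months it was 15 with no filter and 30 with the libraries of the 2 ages, against 48. For any age it was 44 with library totals, 17 with no filter and 16 with lane, against 27. For the trend it was 39 with no filter, 42 with a filter of 10 CPM and 9 without the 2-month group, against 67.

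Leaving out each library in turn, with the tested hairpins and TMM factors of all 25 libraries kept, gave 3 to 7, 3 to 4, 25 to 38 and 27 to 45 called hairpins at 9, 15, 24 and 30 months, 14 to 28 for any age and 45 to 74 for the trend. The lowest count at 24 months was without 24-month replicate 1 and that at 30 months without 30-month replicate 2. The log2 changes at 9 months ran from -0.31 to 0.019 for mir-20b, -0.22 to 0.074 for mir-19b-2 and -0.011 to 0.11 for mir-92a-2. They ran from -0.18 to 0.022 for mir-19b-2 and -0.071 to 0.041 for mir-92a-2 at 15 months, and from -0.19 to 0.43 for mir-106a at 24 months. At 30 months they ran from -0.37 to 0.32 for mir-106a, -0.15 to 0.091 for mir-19b-2, -0.0081 to 0.11 for mir-92a-2 and -0.50 to 0.042 for mir-363. Slopes ran from -0.023 to 0.011 for mir-92a-2 and -0.13 to 0.014 for mir-363. Ratio differences ran from -0.044 to 0.011 for mir-92a-2 to mir-92a-1, -0.020 to 0.0030 for mir-19b-2 to mir-19b-1 and -0.047 to 0.78 for mir-20b to mir-20a.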

Other observations

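The ratio of mir-92a-2 to mir-92a-1 was 29.4% to 31.0% in the 24-month libraries and 31.4% to 33.6% in the 2-month libraries, without overlap. This comparison was chosen after its values were seen. The difference of -0.10 on the log2 scale had a two-sided exact permutation p of 0.00794, the smallest that 5 against 5 libraries can give, and an adjusted p of 0.190 over the 24 comparisons of 6 ratios at 4 older ages. With a pseudocount of 5 the adjusted p was 0.0952, and without single libraries it ran from 0.190 to 0.286. At 30 months the ratio spanned 30.2% to 35.2%, on both sides of the 2-month values. The rule for reads that match both hairpins is not given, so these ratios cannot be assigned to a locus.

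Outside the cluster, 29 hairpins of the X chromosome were tested, of which 3 rose and 2 fell at 24 against 2 months, 5 rose and 3 fell at 30 against 2 months, and 6 rose and 2 fell on the linear trend (edgeR, adjusted p under 0.05). Of all hairpins tested, 12.1%, 14.2% and 19.8% passed in these comparisons, in both directions together.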
